A study of Homo sapiens with 12 samples.

Results

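The E2F transcription factors and their DP partners were examined in ZR-75-1, a luminal breast cancer cell line whose growth depends on oestrogen. The members were taken by gene symbol as E2F1 to E2F8, TFDP1 and TFDP2, which gave 10 of the 60612 gene rows in the count table, and all 10 passed the filter on low counts in every comparison. Cells carried either a non-targeting guide RNA (sgControl) or a CRISPR-induced knockout of RB1, the gene for the retinoblastoma protein Rb. Each genotype was kept for 5 days in 500 nM abemaciclib, a CDK4 and CDK6 inhibitor, or in an equal volume of the solvent DMSO. This gave 4 groups with 3 biological replicates each, and RNA sequencing reads were counted per gene. The knockout cells were derived as isogenic clones of ZR-75-1, and how many clones stand behind each genotype is not given in the sources used here. A difference between genotypes therefore cannot be told apart from a difference that came with a clone.

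E2F proteins switch on, or hold off, the genes that cells need for DNA replication and division. All but the atypical members bind DNA as a pair with a DP protein, encoded by TFDP1 or TFDP2. E2F1, E2F2 and E2F3 are called activators and are held in check by Rb, which CDK4 and CDK6 release by phosphorylation. E2F4 and E2F5 are repressors that work with the Rb relatives p107 and p130, and E2F6 represses through polycomb complexes without binding Rb-family proteins. E2F7 and E2F8 are atypical repressors with a duplicated DNA-binding domain, and they need neither DP nor Rb. Several family members are themselves E2F targets, so the family is wired as a circuit of feed-forward and feedback loops.

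The promoters of 8 of the 10 members were matched by symbol in a RefSeq table on GRCh38.p14, which holds 250 bases before and 50 bases after each annotated start. E2F5 and E2F8 had no entry. Promoters were searched on both strands for the E2F consensus in 4 spellings of 8 letters, TTTCCCGC, TTTCGCGC, TTTGCCGC and TTTGGCGC, and for the 7-letter cores that remain when the leading T is dropped, so that each 8-letter match also holds a 7-letter one. Of all 35116 promoters in the table, 3.31% held an 8-letter match and 12.97% a 7-letter match. Among the 8 members, 4 held an 8-letter match (E2F1, E2F2, E2F3 and TFDP1) and 6 a 7-letter match (E2F6 and E2F7 in addition). Members were counted as genes with a match in any promoter, and E2F3 and TFDP2 have multiple ones, whereas the shares count single promoters. A match describes the letters and does not show binding. The sequences below were chosen to set promoters of members that fell under abemaciclib (E2F1, E2F2, E2F7 and TFDP1) beside that of E2F3, which rose, and that of E2F4, which moved little. They are written 5′ to 3′ along the gene, and capitals mark 8-letter matches, or 7-letter matches in E2F7, which had no 8-letter one.
E2F1, chr20:33686336-33686635, minus strand: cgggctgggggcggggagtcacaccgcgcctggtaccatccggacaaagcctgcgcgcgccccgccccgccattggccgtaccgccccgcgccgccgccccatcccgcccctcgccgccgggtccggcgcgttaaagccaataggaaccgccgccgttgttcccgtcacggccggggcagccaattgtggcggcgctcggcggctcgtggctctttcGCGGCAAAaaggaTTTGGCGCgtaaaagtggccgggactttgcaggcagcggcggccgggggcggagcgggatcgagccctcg
E2F2, chr1:23531184-23531483, minus strand: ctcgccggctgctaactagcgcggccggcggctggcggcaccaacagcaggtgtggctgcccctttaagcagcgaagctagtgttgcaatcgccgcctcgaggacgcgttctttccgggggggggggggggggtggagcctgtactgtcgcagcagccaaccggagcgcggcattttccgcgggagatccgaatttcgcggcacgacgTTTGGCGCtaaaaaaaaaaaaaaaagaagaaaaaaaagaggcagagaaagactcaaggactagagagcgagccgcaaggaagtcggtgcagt
E2F7, chr12:77065520-77065819, minus strand: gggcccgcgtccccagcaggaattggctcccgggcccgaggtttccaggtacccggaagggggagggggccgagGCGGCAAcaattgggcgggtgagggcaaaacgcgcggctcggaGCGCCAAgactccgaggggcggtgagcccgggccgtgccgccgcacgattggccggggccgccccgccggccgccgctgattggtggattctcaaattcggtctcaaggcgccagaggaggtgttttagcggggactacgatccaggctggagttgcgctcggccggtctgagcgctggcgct
TFDP1, chr13:113584503-113584802, plus strand: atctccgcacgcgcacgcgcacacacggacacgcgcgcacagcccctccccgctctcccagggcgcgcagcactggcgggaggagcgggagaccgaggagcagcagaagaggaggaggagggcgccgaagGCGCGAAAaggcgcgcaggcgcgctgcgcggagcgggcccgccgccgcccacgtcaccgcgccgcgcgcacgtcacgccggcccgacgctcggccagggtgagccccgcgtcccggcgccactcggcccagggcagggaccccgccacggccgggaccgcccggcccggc
E2F3, chr6:20401629-20401928, plus strand: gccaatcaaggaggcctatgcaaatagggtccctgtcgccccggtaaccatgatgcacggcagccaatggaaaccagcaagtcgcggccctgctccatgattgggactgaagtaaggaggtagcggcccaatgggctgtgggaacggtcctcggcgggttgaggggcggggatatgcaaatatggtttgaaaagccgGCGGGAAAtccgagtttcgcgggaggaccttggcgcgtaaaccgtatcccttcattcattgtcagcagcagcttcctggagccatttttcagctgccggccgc
E2F4, chr16:67191905-67192204, plus strand: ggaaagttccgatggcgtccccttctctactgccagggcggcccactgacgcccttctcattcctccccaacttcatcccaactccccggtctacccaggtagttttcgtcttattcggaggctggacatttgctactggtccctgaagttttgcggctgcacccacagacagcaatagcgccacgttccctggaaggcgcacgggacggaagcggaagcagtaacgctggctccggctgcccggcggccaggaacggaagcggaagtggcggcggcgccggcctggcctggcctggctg

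The E2F1 promoter held 2 matches close together, which began 33 and 20 bases before the start and lay on opposite strands (first bases at -33 and -20, with the start itself counted as 0). Single matches began at -42 in E2F2, at -53 in E2F3 and at -120 in TFDP1, the last 2 on the reverse strand. The 7-letter matches of E2F7 began at -176 and -133, farther from the start than those of the activators, and the one in E2F6 began at 14, within the transcribed bases. A second E2F3 promoter in the table, and the promoters of E2F4 and TFDP2, held none of these letters. E2F1 and E2F3, which both had an 8-letter match, moved in opposite directions under the drug (below), as did E2F3 and TFDP1.

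Libraries held between 39907318 and 81636393 counts. RB1 stood at 4154 to 4825 normalised counts (counts divided by a size factor for each library) in untreated sgControl libraries and at 39.6 to 51.2 in untreated knockout libraries. Under abemaciclib it stood at 2252 to 2489 and at 44.2 to 63.5, so every library matched the genotype in its label. RB1 does not check the treatment of the knockout libraries, whose ranges overlapped. All 8 luminal markers were present, with KRT8 not below 187330 normalised counts, while markers of other cell types were mixed. KRT5, KRT14, TP63, COL1A2, COL3A1, PTPRC, PECAM1 and CDH5 had medians of 0 to 1.66 and CD3E had no count, but COL1A1 had a median of 2474, ACTA2 of 740, VWF of 61.3, LYZ of 22.4, LUM of 16.9 and PDGFRB of 9.32. Sums over these markers moved with the drug. That of 4 leukocyte markers was higher in sgControl cells under abemaciclib (441 to 544) than elsewhere (10.2 to 39.7), and LYZ alone carried it. The basal sum was 488 to 696 in untreated and 135 to 152 in treated sgControl libraries, and 800 to 901 in knockout libraries. The fibroblast sum was 2118 to 2413 without drug and 2866 to 3083 with it in sgControl cells, and 1906 to 2069 and 2591 to 2705 in knockout cells. The endothelial sum was 21.4 to 38.4 and 91.2 to 101 in sgControl cells, and 30.7 to 34.2 and 86.3 to 102 in knockout cells. Mitochondrial transcripts took 2.82 to 3.99% of counts in untreated sgControl libraries and 7.22 to 8.53% under abemaciclib, against 3.78 to 4.13% and 5.44 to 7.39% in knockout libraries. Whether any of these has a part in the results on the E2F family was not tested. In these bulk samples fewer cycling cells and less RNA per cell cannot be told apart.

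With RB1 present, abemaciclib changed 9 of the 10 members. Using DESeq2 at an adjusted p of 0.05, 7 members fell, beside 23.9% of the 23512 genes tested, and 2 rose, beside 24.1%. Without RB1, 2 members fell (15.1% of all genes tested) and 3 rose (15.0%). Both counts depended on the fit: 1 member rose without independent filtering, with a replicate block, or without replicate 2 or 3 of the untreated or replicate 1 or 2 of the treated knockout libraries, and 4 fell in a fit of the knockout samples alone or without the first untreated sgControl library. The difference between both responses, tested as an interaction and given here as the response in knockout cells minus that in sgControl cells, was above 0 for 6 members (21.0% of genes) and below 0 for 2 (20.2%). Untreated knockout cells had 4 members higher (16.2% of genes) and 2 lower (15.2%) than untreated sgControl cells, with 2 of the 4 higher calls kept under size factors from total counts. Under abemaciclib, knockout cells had 6 members higher (27.5% of genes) and none lower (26.4%), or 1 lower, E2F5, in edgeR and with a filter on a mean count of 10. The median response of the 10 members was -0.59 on the log2 scale in sgControl cells and -0.14 in knockout cells, where the median over all genes tested was 0.01 and 0.02.

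E2F1, the Rb-bound activator that drives entry into S phase (chr20:33675477-33686385, minus strand), was the most abundant E2F. Its normalised counts were 8069, 7249 and 7394 in untreated sgControl libraries and 3858, 3715 and 3850.5 under abemaciclib. In knockout libraries they were 6813, 7401 and 7340.4 without drug and 6649.8, 6499.6 and 6516 with it. The treated sgControl libraries thus sat far below the other 9, none of which came near them. E2F1 fell by 0.99 ± 0.06 with RB1 present (log2 fold change ± SE, adjusted p = 2.54e-69), a 1.99-fold drop. In knockout cells its log2 fold change was -0.13 ± 0.06 (adjusted p = 0.0551), just outside the threshold, and the groups did not overlap. It was called lower in 4 of 18 alternative fits: that of the knockout samples alone (adjusted p = 0.00540), those without the first untreated sgControl library (0.00809) or the first untreated knockout library (0.0264), and that with size factors from total counts (0.0337). The responses differed by 0.86 ± 0.08 (adjusted p = 2.18e-26). Loss of RB1 on its own left E2F1 at a log2 fold change of -0.07 (95% interval -0.18 to 0.03, adjusted p = 0.332), with overlapping libraries.

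E2F2, a second Rb-bound activator (chr1:23506438-23531233, minus strand), responded far more than E2F1. Untreated sgControl libraries held 2922, 3057 and 3117 normalised counts, and treated ones 186, 170.0 and 153. Knockout libraries held 3518, 3422 and 3416 without drug and 2553, 2767 and 2584 with it. The drop in sgControl cells was 17.9-fold, with a log2 fold change of -4.16 ± 0.08 and an adjusted p too small for the software to represent. Knockout cells also lost some E2F2, by a 1.31-fold drop (log2 fold change -0.39 ± 0.06, adjusted p = 9.41e-10) in which the groups did not overlap. The interaction was 3.78 ± 0.10 (adjusted p = 4.94e-295). Untreated knockout cells held slightly more E2F2 than sgControl cells (log2 fold change 0.19 ± 0.06, adjusted p = 0.00616), a call that was lost without the first untreated knockout library (0.17, adjusted p = 0.0503) or with size factors from total counts (0.16, adjusted p = 0.120).

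E2F3, the activator with a pair of promoters that give a long and a short protein (chr6:20401879-20493714, plus strand), went the other way. Reads counted per gene do not separate its products. Its normalised counts in sgControl cells were 746, 812 and 798 without drug and 1237, 1277 and 1207 with it. In knockout cells they were 971, 924 and 932 without drug and 1162, 1134 and 1156 with it. Treated libraries lay above untreated ones in both genotypes. E2F3 rose by 0.66 ± 0.06 in sgControl cells (adjusted p = 6.25e-24) and by 0.29 ± 0.07 in knockout cells (adjusted p = 0.000109). The increase was the smaller one in knockout cells: the interaction was -0.37 ± 0.09 (adjusted p = 0.000233), which was not called with size factors from total counts (-0.23, adjusted p = 0.0918). E2F3 was also higher in untreated knockout cells than in untreated sgControl cells, by 0.26 ± 0.07 (adjusted p = 0.000551).

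**Figure D1:**
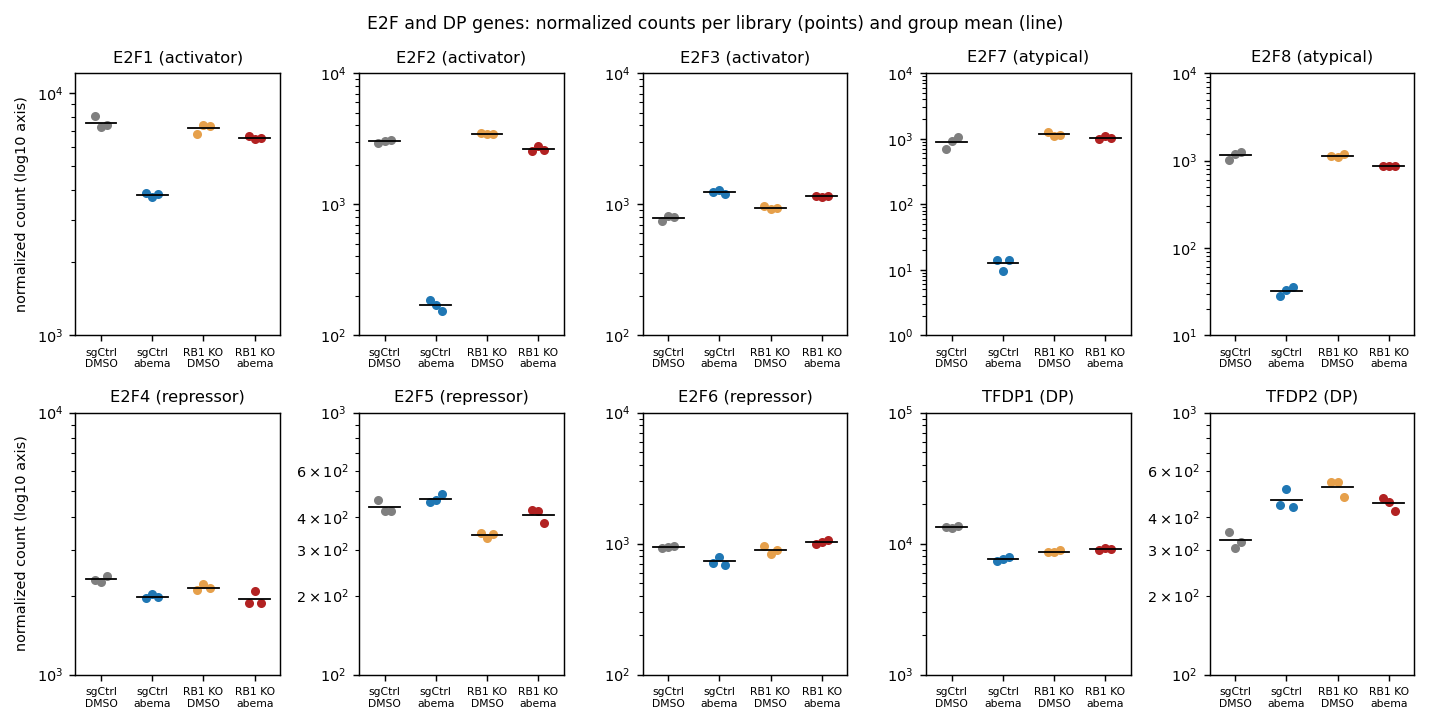
Normalised counts of the 10 members in each of the 12 libraries (points, log10 axis) with the mean of each group (line), for sgControl (sgCtrl) and RB1 knockout (RB1 KO) cells under DMSO or abemaciclib (abema). E2F2, E2F7 and E2F8 drop in the treated sgControl libraries to means of 170, 12.6 and 32.3, and E2F3 is highest there.

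The atypical pair fell the furthest. E2F7 (chr12:77021248-77065569, minus strand) represses E2F targets late in S phase. It held 702, 908 and 1062 normalised counts in untreated sgControl libraries and 14.0, 9.7 and 14.1 in treated ones, the latter from 13, 11 and 16 reads. In knockout libraries it held 1284, 1094 and 1129 without drug and 982, 1117 and 1032 with it. Near silence of E2F7 was thus seen in the 3 treated sgControl libraries and in no other. The drop was 71.1-fold, at a log2 fold change of -6.15 ± 0.26 (adjusted p = 6.33e-119). In knockout cells the groups overlapped, and the log2 fold change was -0.16 with a 95% interval of -0.43 to 0.10 (adjusted p = 0.402). The interaction, 5.99 ± 0.30, had an adjusted p of 3.41e-89. Untreated knockout cells held more E2F7 than sgControl cells by 0.39 ± 0.13 (adjusted p = 0.0148). The untreated sgControl libraries were spread widely: without the first of them that difference was 0.24 (adjusted p = 0.045), and without the first untreated knockout library it was 0.32 and not called (adjusted p = 0.104). Size factors from total counts also ended that call (0.36, adjusted p = 0.0829).

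E2F8, the partner of E2F7 with which it can form dimers (chr11:19224063-19241620, minus strand), fell alongside it in sgControl cells but, unlike E2F7, was also called lower in knockout cells. Its normalised counts in sgControl cells were 1016, 1177 and 1238 without drug and 28.0, 32.8 and 36.1 with it. In knockout cells they were 1123, 1099.6 and 1197 without drug and 864, 872 and 874.5 with it. Treated libraries lay below untreated ones in each genotype, by a wide margin in sgControl cells and a narrow one in knockout cells. E2F8 fell 35.2-fold in sgControl cells (-5.14 ± 0.16 on the log2 scale, adjusted p = 1.27e-211) and 1.31-fold in knockout cells (-0.39 ± 0.09, adjusted p = 0.000133). Its interaction was 4.75 ± 0.19 (adjusted p = 7.66e-139). Between untreated genotypes the log2 fold change was -0.01 with a 95% interval of -0.18 to 0.17 (adjusted p = 0.971), and the libraries overlapped. E2F8 shares its locus with CSRP3-AS1 on the opposite strand.

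The repressors moved least under abemaciclib in sgControl cells, though not in knockout cells or between the untreated genotypes. E2F4, the main partner of p130 and p107 in resting cells (chr16:67192155-67198918, plus strand), held 2297.5, 2246 and 2382.5 normalised counts in untreated sgControl libraries and 1955, 2022 and 1979 in treated ones. It held 2093, 2219 and 2133 in untreated and 1872, 2089 and 1878 in treated knockout libraries. The 4 groups lay within a narrow band, and treated libraries were the lower ones in both genotypes. E2F4 fell by 0.22 ± 0.06 in sgControl cells (adjusted p = 0.000721). The log2 fold change in knockout cells was -0.14 ± 0.06 (adjusted p = 0.062). It was called in 3 of 18 alternative fits, that of the knockout samples alone (adjusted p = 0.0413) and those without the first untreated sgControl library (0.0434) or the second treated knockout library (-0.20, adjusted p = 0.0123). The interaction of 0.08 was not called (95% interval -0.09 to 0.24, adjusted p = 0.532).

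E2F5, the p130-binding relative of E2F4, was the one member without a call in sgControl cells. It held 464, 420.4 and 420.2 normalised counts without drug and 456, 462 and 490 with it, and these groups overlapped. The log2 fold change of 0.11 (95% interval -0.06 to 0.29, adjusted p = 0.320) turned to -0.02 with size factors from total counts. In knockout libraries it held 346, 333 and 344.5 without drug and 423.5, 419 and 380.3 with it. The untreated knockout libraries were the lowest of the 12. They lay below untreated sgControl libraries by 0.35 ± 0.10 (adjusted p = 0.00149). The increase under abemaciclib in knockout cells was 0.26 ± 0.10 (adjusted p = 0.0327), and 8 of 18 alternative fits did not call it, among them those that left out any untreated knockout library or the first or second treated one. E2F5 overlaps RBIS on the opposite strand, and whether strand was used in counting is not given in the sources used here.

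E2F6, the Rb-independent repressor of polycomb complexes (chr2:11444375-11466177, minus strand), responded in opposite directions in the genotypes. Its normalised counts in sgControl cells were 929, 939 and 956 without drug and 716, 791 and 686 with it. In knockout cells they were 954, 834 and 891 without drug and 984, 1028 and 1059 with it. The treated sgControl libraries were the lowest of the 12 and the treated knockout libraries the highest. E2F6 fell by 0.37 ± 0.08 in sgControl cells (adjusted p = 1.01e-05). It rose in knockout cells by 0.20 ± 0.08 (adjusted p = 0.0402), a call that 11 of 18 alternative fits did not make, with an adjusted p of 0.0509 in edgeR. The interaction of 0.56 ± 0.11 (adjusted p = 2.01e-06) was called in all 17 alternative fits.

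TFDP1 encodes DP1, the obligate partner of most E2F proteins, and lies near the end of the long arm of chromosome 13 (chr13:113584721-113641473, plus strand). It had the highest counts of the 10 members in all 12 libraries. Its normalised counts were 13295, 13160.5 and 13705 in untreated sgControl libraries and 7322, 7667 and 7845.5 in treated ones. In knockout libraries they were 8551.2, 8550.8 and 8861 without drug and 8917, 9188 and 9075 with it. The untreated sgControl libraries stood apart from the other 9. TFDP1 fell by 0.81 ± 0.04 under abemaciclib in sgControl cells (adjusted p = 5.20e-80), a 1.76-fold drop. The log2 fold change in knockout cells was 0.07, with a 95% interval of -0.02 to 0.15 (adjusted p = 0.263), and the interaction was 0.88 ± 0.06 (adjusted p = 3.76e-46).

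TFDP1 and E2F5 were the 2 members that were lower in untreated knockout cells, TFDP1 by 0.63 ± 0.04 on the log2 scale (adjusted p = 6.22e-47). RB1 lies on the same chromosome arm (chr13:48303744-48599436), and the genes around TFDP1 were lower as well. The 21 other genes within 5 Mb of TFDP1 with at least 100 normalised counts on average had a median log2 fold change of -0.68, with 20 of 21 below 0 and 13 of 21 below TFDP1 itself. TFDP1 was only 0.05 above that local median. Lower values on chromosome 13 were not confined to this window. Genes beside RB1 were lower too, such as MED4 (-1.02) and ITM2B (-0.86), as was RFC3 on its far side (-1.09). Between RB1 and TFDP1 most genes were lower as well, such as DIS3 (-0.63) and IPO5 (-0.69). KLF12 (0.45) and LMO7 (0.44) were among the few exceptions there. MPHOSPH8 (0.09) and PSPC1 (0.03), far from both, lay near 0. These examples were chosen after their values were seen. The median over 11262 genes on other chromosomes was -0.01, and the local medians around the other 9 members lay between -0.11 and 0.07. Under abemaciclib the picture around TFDP1 differed. The same neighbours had a median of -0.79 between knockout and sgControl cells, with 15 of 21 below 0, whereas TFDP1 was higher in knockout cells by 0.25 ± 0.04 (adjusted p = 2.11e-08). TFDP1 then stood 1.05 above the median of its neighbourhood and above 17 of the 21 genes. These included CUL4A at -1.08, LAMP1 at -0.92 and CDC16 at -1.30, 3 genes chosen after their values were seen. The genes above TFDP1 were IRS2 at 2.10, ATP11A at 1.01, GAS6 at 0.63 and TUBGCP3 at 0.52. No DNA measurement was used here, so copy number at TFDP1 was not tested.

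**Figure D2:**
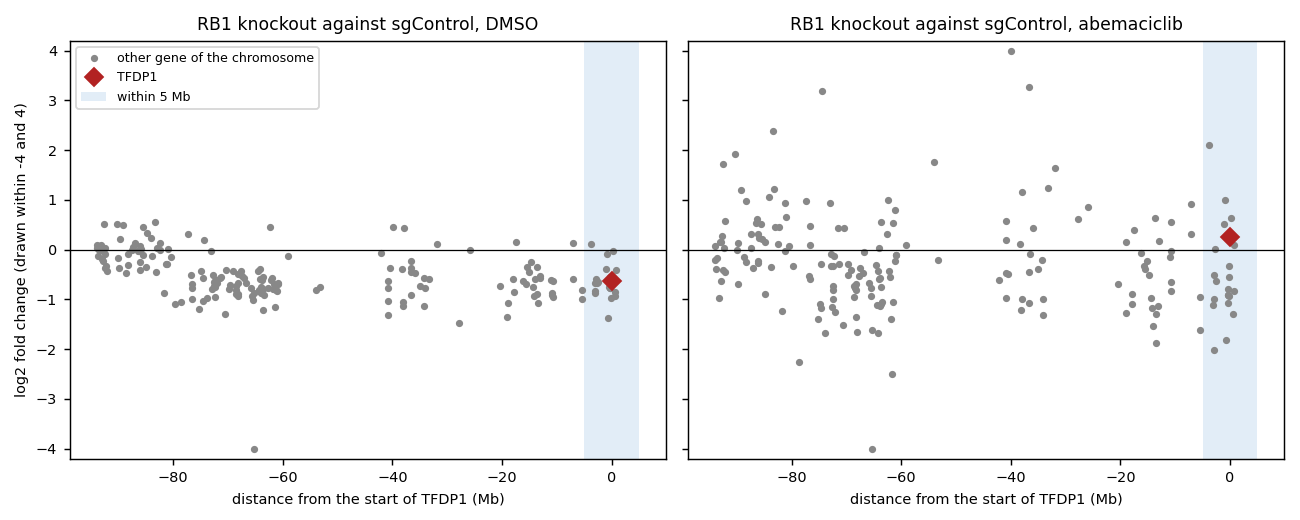
Log2 fold changes of RB1 knockout against sgControl cells for genes of chromosome 13 (grey points) and TFDP1 (red diamond) by distance from the start of TFDP1 in Mb, under DMSO (left) and abemaciclib (right), with values beyond -4 or 4 drawn at that limit. The blue band marks 5 Mb on either side, where the median of 21 other genes is -0.68 under DMSO and -0.79 under abemaciclib, with TFDP1 at -0.63 and 0.25.

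TFDP2 encodes the second DP partner (chr3:141944428-142149544, minus strand) and moved against TFDP1. It held 351, 304 and 322 normalised counts in untreated sgControl libraries and 444, 512 and 438 in treated ones. It held 544, 545 and 475 in untreated and 473, 455 and 421 in treated knockout libraries. Untreated sgControl libraries were the lowest of the 12, as they were the highest for TFDP1. TFDP2 rose by 0.51 ± 0.11 in sgControl cells (adjusted p = 3.69e-06), and its log2 fold change in knockout cells was -0.21 ± 0.11 (adjusted p = 0.116). The interaction was -0.73 ± 0.15 (adjusted p = 5.39e-06). Untreated knockout cells held more TFDP2 than sgControl cells by 0.68 ± 0.11 (adjusted p = 2.62e-09), the largest untreated genotype difference among the 10 members, while the genes within 5 Mb of it had a median of -0.07.

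Under abemaciclib, knockout and sgControl cells differed most in the members that had fallen the furthest. E2F7 was 83.2-fold higher in knockout cells (log2 fold change 6.38 ± 0.26, adjusted p = 9.61e-128), E2F8 26.7-fold (4.74 ± 0.17, adjusted p = 4.04e-178) and E2F2 15.6-fold (3.96 ± 0.08, adjusted p too small to represent). E2F1 was 1.72-fold higher (adjusted p = 2.97e-43), E2F6 1.40-fold (adjusted p = 2.82e-09) and TFDP1 1.19-fold (adjusted p = 2.11e-08). E2F3, E2F4, E2F5 and TFDP2 were not called, with log2 fold changes of -0.11, -0.03, -0.21 and -0.05, of which those of E2F3, E2F4 and TFDP2 turned positive with size factors from total counts. The adjusted p of E2F5 was 0.0505, and E2F5 was called lower in edgeR (-0.21, adjusted p = 0.0257) and with a filter on a mean count of 10 (adjusted p = 0.0326). These comparisons share their libraries with the responses above and add no independent samples.

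**Figure D3:**
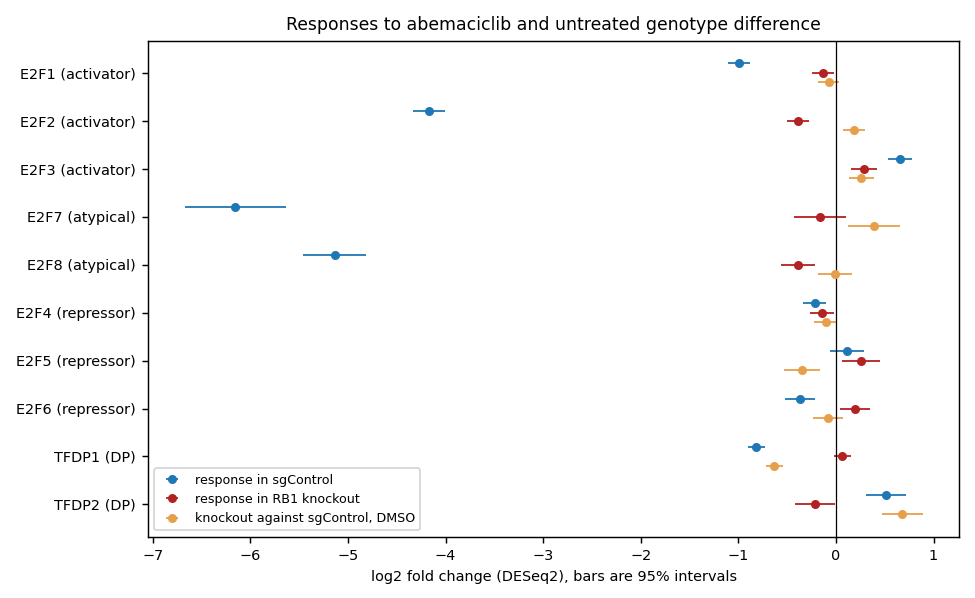
Log2 fold changes from DESeq2 for the 10 members, grouped by class, with bars for 95% intervals: abemaciclib against DMSO in sgControl cells (blue), the same in RB1 knockout cells (red), and knockout against sgControl cells under DMSO (orange). In sgControl cells E2F2, E2F7 and E2F8 lie at -4.16, -6.15 and -5.14, while all responses in knockout cells lie between -0.39 and 0.29.

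To compare genes with each other, normalised counts were divided by the length of their merged exons in kilobases. In untreated sgControl cells TFDP1 stood highest at 3575.5 ± 75.7 per kilobase (SD, n = 3), followed by E2F1 at 2814.5 ± 163, E2F4 at 642 ± 19.2 and E2F2 at 555 ± 18.3. E2F8, E2F6, E2F3, E2F7, E2F5 and TFDP2 followed in that order, from 277 ± 27.8 down to 27.4 ± 1.99. The libraries of neighbours in this order did not overlap, except those of E2F3 and E2F7. Under abemaciclib the order in sgControl cells changed below E2F4: E2F3 moved up to the fourth place at 239 ± 6.78, and E2F2, E2F8 and E2F7 moved to the bottom at 31.1 ± 3.04, 7.81 ± 0.984 and 2.01 ± 0.396, below TFDP2 at 39.0 ± 3.45. In untreated knockout cells E2F1 (2671 ± 120) stood above TFDP1 (2312 ± 47.9), E2F2 above E2F4, and the libraries of E2F7 and E2F3 overlapped. In treated knockout cells the libraries of E2F1 (2437 ± 30.6) and TFDP1 (2419.8 ± 36.3) overlapped, and no other neighbours did. The place of E2F1 above TFDP1 in knockout cells depended on the length used. With the longest transcript TFDP1 stood at 3279 ± 67.9 and 3433 ± 51.5 per kilobase in untreated and treated knockout cells, above E2F1, and without division by length it also stood above E2F1 in every library. With the longest transcript E2F2 (664 ± 11.0 per kilobase) stood below E2F4 (821.5 ± 24.6) in untreated knockout cells. Without division E2F2 (3032 ± 99.9 normalised counts) stood above E2F4 (2309 ± 69.1) in untreated sgControl cells.

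Summed over E2F1 to E2F8, the level per kilobase was 4885 ± 109 in untreated and 2505.5 ± 5.16 in treated sgControl cells (SD, n = 3). Without RB1 it was 4819.9 ± 91.7 and 4378 ± 48.9. Activators held 72.1 ± 1.61% of that sum in untreated sgControl cells and 67.3 ± 0.876% in treated ones. Repressors went from 19.4 ± 0.375% to 32.3 ± 0.88%, although 2 of their 3 genes had fallen, and the atypical pair from 8.57 ± 1.24% to 0.392 ± 0.0415%. The treated libraries did not overlap the untreated ones in any of these shares. In knockout cells the shares were 72.3 ± 0.828%, 18.1 ± 0.364% and 9.58 ± 0.535% without drug and 71.7 ± 0.839%, 19.7 ± 0.654% and 8.60 ± 0.202% with it. The repressor share of the treated sgControl libraries, 31.7 to 33.3%, was thus above that of every other library, none of which exceeded 20.4%. These shares describe RNA and were not tested.

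The balance of DP to E2F RNA differed between genotypes more than between treatments. The summed DP level was 3603 ± 75.9 per kilobase in untreated sgControl cells, or 0.738 ± 0.0167 of the E2F sum, and 0.827 ± 0.0301 of it under abemaciclib. In knockout cells the ratio was 0.489 ± 0.00925 without drug and 0.561 ± 0.00578 with it. TFDP1 made up 98.1 to 99.2% of the DP level in the means of the 4 groups. Its untreated genotype difference of -0.63 was near the median of -0.68 of its neighbours on chromosome 13. The ratio of E2F1 to E2F4, the leading activator and the leading repressor, was 4.39 ± 0.28 in untreated and 2.57 ± 0.0962 in treated sgControl cells, and 4.47 ± 0.125 and 4.52 ± 0.313 in knockout cells. Both ratios depend on the length used. With the longest transcript, TFDP1 stood at 5072.7 per kilobase and E2F4 at 883 in untreated sgControl cells, instead of 3575.5 and 642. E2F1 stayed at 2814.5.

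**Figure D4:**
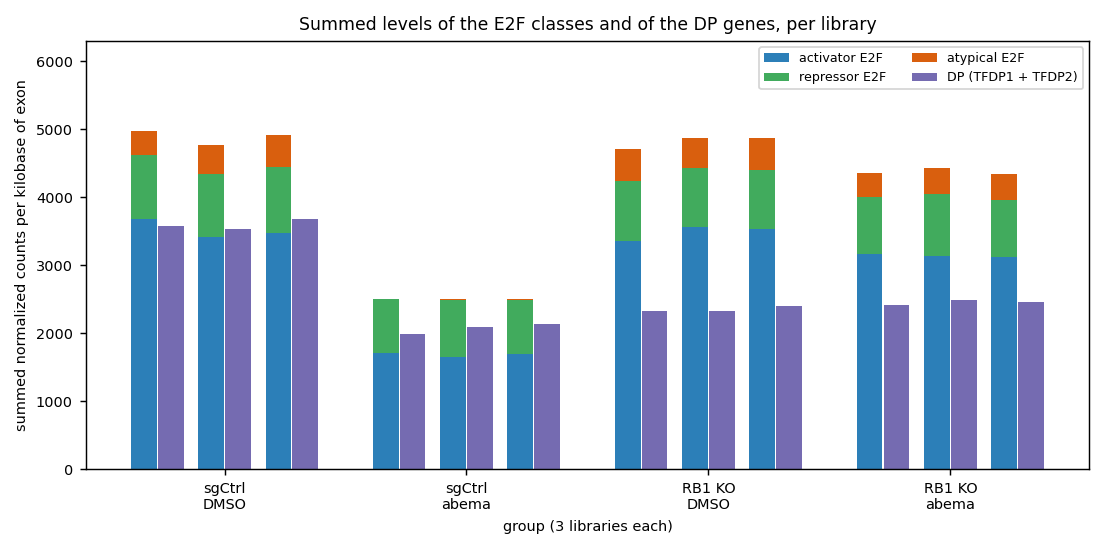
Summed normalised counts per kilobase of exon in each library: E2F genes stacked by class (activator, repressor, atypical) beside the DP genes, for 3 libraries per group of sgControl (sgCtrl) and RB1 knockout (RB1 KO) cells under DMSO or abemaciclib (abema). The E2F sum of treated sgControl libraries is near 2505.5, against means of 4378 or more in the other groups, and their atypical share of 0.392% is too thin to see.

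Genes that act around the E2F family were followed in 6 lists that together held 91 genes, with 5 genes in more than one list. The background for their counts is the share of all genes tested, of which 23.9% fell and 24.1% rose in sgControl cells and 15.1% fell and 15.0% rose in knockout cells. For interactions it was 21.0% above 0 and 20.2% below. Knockout cells had 16.2% of genes higher and 15.2% lower than sgControl cells without drug, and 27.5% and 26.4% with it. Upstream of Rb stand the D-type and E-type cyclins, their kinases and the kinase inhibitors. Of 16 such genes, CCND2 had no count in any library. Of the other 15, 12 fell and 1 rose in sgControl cells (median log2 fold change -1.27), whereas 3 fell and 4 rose in knockout cells (median -0.03), and 13 interactions were above 0 and 2 below. CCNE2, the E-type cyclin of S-phase entry, fell by 6.13 ± 0.20 (adjusted p = 9.41e-196), and CCNA2, the S and G2 cyclin, fell by 5.08 ± 0.07. CDKN2A, whose products include p16, fell by 3.13 ± 0.10, and counts per gene do not separate its products. CCND1, the cyclin that activates CDK4 and CDK6, was the gene that rose, by 1.18 ± 0.05 (adjusted p = 3.65e-105).

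Pocket proteins and the MuvB core form the DREAM complex with E2F4, E2F5 and DP proteins. Of 10 genes in this list, 7 fell and 2 rose in sgControl cells (median -0.62), and 3 fell and 1 rose in knockout cells (median -0.05). RBL1, which encodes p107, fell by 2.40 ± 0.12 (adjusted p = 2.88e-84), while RBL2, which encodes p130, rose by 0.41 ± 0.10 (adjusted p = 0.00026). LIN37, a MuvB subunit, rose by 0.74 ± 0.17. The factors that replace the pocket proteins on MuvB in cycling cells fell, MYBL2 at -1.60 ± 0.08 and FOXM1 at -2.64 ± 0.05. Of these interactions 7 were above 0 and 2 below, the latter those of LIN37 and RBL2, at -0.90 and -0.40. RB1, the gene edited in knockout cells, is on this list, and its RNA was lower there. The cause of the lower RNA was not tested. RB1 is counted among the 7 that fell in sgControl cells (-0.95 ± 0.08) and among the 7 interactions above 0 (1.15 ± 0.21). That interaction rests on means of 46.8 and 54.0 normalised counts in untreated and treated knockout cells. It cannot be read as a response of an intact gene.

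Ubiquitin ligase subunits that act on E2F proteins numbered 5, of which 4 fell and none rose in sgControl cells (median -0.89), and 2 fell and none rose in knockout cells (median -0.07). CCNF, the F-box protein cyclin F, fell by 2.17 ± 0.06, CDC20, an activator of the anaphase-promoting complex, fell by 2.28 ± 0.08, and SKP2 fell by 0.89 ± 0.09. Of 14 polycomb partners of E2F6, 7 fell and 2 rose in sgControl cells (median -0.18), and 4 fell and 3 rose in knockout cells (median -0.05), counts that stand beside the same background. PCGF6, the ring-finger subunit that defines this complex, fell by 1.18 ± 0.10 (adjusted p = 6.58e-33), while RNF2, its ubiquitin ligase, rose by 0.54 ± 0.07.

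All 42 classical G1/S targets of E2F fell in sgControl cells (median -1.94), and all 42 interactions were above 0. In knockout cells 22 of them fell and 4 rose, with a median of -0.20. RRM2, a subunit of ribonucleotide reductase, fell by 8.21 ± 0.14 in sgControl cells, and TYMS, the thymidylate synthase, fell by 5.67 ± 0.07. In knockout cells the largest drop was that of MCM10, a replication initiation factor (-0.88 ± 0.08, adjusted p = 5.14e-27). Untreated knockout cells had 12 of the 42 targets higher and 10 lower than sgControl cells (median -0.0099), beside 16.2% and 15.2% of all genes tested. CCNE1 was 0.56 ± 0.07 higher and RRM2 0.39 ± 0.05 lower.

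Genes of apoptosis are known as a further set of E2F1 targets. Of 10 such genes, 6 fell and 1 rose in sgControl cells (median -0.33), but 1 fell and 4 rose in knockout cells (median 0.18). TP73, which encodes the p53 relative p73, fell by 1.94 ± 0.09 in sgControl cells (adjusted p = 6.76e-103) and was 0.84 ± 0.08 higher in untreated knockout cells (adjusted p = 1.40e-25). APAF1, the apoptosome scaffold, fell by 1.19 ± 0.13, and PPP1R13B, a p53 cofactor, rose by 0.85 ± 0.07. PMAIP1, the BH3-only gene for Noxa, rose by 1.03 ± 0.12 in treated knockout cells (adjusted p = 2.36e-16). In knockout against sgControl cells under abemaciclib, 7 of these 10 genes were higher and 1 lower, beside all 42 classical targets higher. Of all genes tested there, 27.5% were higher and 26.4% lower. None of these counts was compared between lists by a test.

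**Figure D5:**
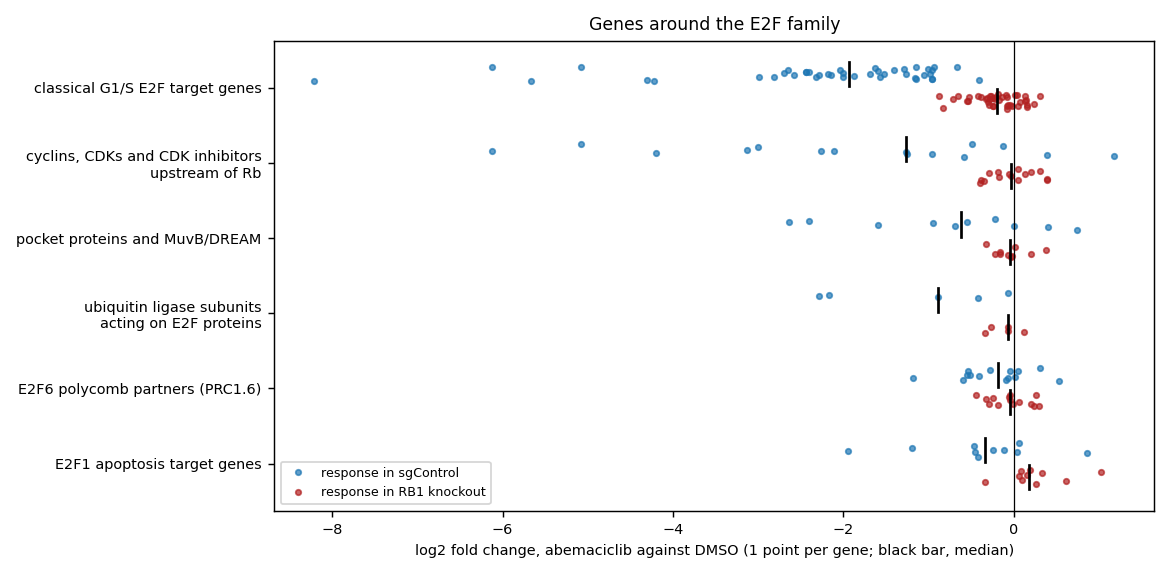
Log2 fold changes of abemaciclib against DMSO for the genes of 6 lists (1 point per gene), in sgControl cells (blue) and RB1 knockout cells (red), with the median of each as a black bar. The medians of the 42 classical E2F targets are -1.94 and -0.20, and those of the 10 apoptosis genes are -0.33 and 0.18.

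The genes most like each member were sought by Pearson correlation of log2(normalised count + 1) over the 12 libraries, among 11875 genes with at least 100 normalised counts on average. The points share 4 groups and the same libraries, and the coefficients are a description with no test. They rest on the measure: by Spearman correlation 4 of the 30 genes found remained among the 3 highest, 3 for E2F4 and 1 for E2F5, and none for the other members. E2F2 was most like PLK1, FAM83D and SPAG5, genes of the mitotic spindle, at 0.999. E2F7 was most like FAM111B, KIF20A and CCNE2 (0.720 by Spearman for the last), and E2F8 most like LMNB1, KIF23 and ZNF367, at 0.997 to 0.999. Among the members themselves, E2F2, E2F7 and E2F8 correlated with one another at 0.993 to 0.997. E2F1 was most like NUP88, UBALD2 and DAZAP1 at 0.997 to 0.998, and E2F3 most like ARHGAP26, ABCA7 and TOB2 at 0.986 to 0.992.

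The 3 genes most like TFDP1, at 0.979 to 0.983, were SLITRK6, BORA and TMTC4, and all 3 lie on chromosome 13. Their log2 fold changes between untreated knockout and sgControl cells were -1.48, -1.03 and -0.57. SLITRK6 held 704 normalised counts in untreated sgControl cells, 214 in treated ones, and 253 and 330 in untreated and treated knockout cells, on average. The genes most like TFDP2 included TRIM8 and SCNN1A, at 0.941 and 0.936. The repressors gave E2F4 with USP4, LTO1 and DENND11, E2F5 with ABRACL, AC005332.6 and CCNC, and E2F6 with MALT1, SMAD4 and PTK7, at 0.921 to 0.974. The repressors also varied little, with an SD over the 12 libraries of 0.113 to 0.199 on the log2 scale, against 1.88 to 2.84 for E2F2, E2F7 and E2F8.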

How the data were processed

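The 12 libraries were those of the 4 groups above, with groups and replicate numbers taken from the sample titles. The deposited values are raw counts per gene. The authors trimmed reads with BBDuk and aligned them to hg38 with STAR 2.7.5b, and counted them with featureCounts 2.0.1, per the submitters' processing notes and the study's methods. Use of strand and of reads with several alignments in counting is not given in the sources used here. The labels name a directional whole-transcript kit and the study's methods a 3′ kit, so levels per kilobase were also computed without division by length. A gene can hold reads of a gene that overlaps it.

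Rows named NA (44, with a share of counts of 0%) were left out, which left 60612 rows. DESeq2 1.42.0 in R 4.3.3 was fitted to all 12 libraries with a term for group, with two-sided Wald tests, no shrinkage and Benjamini-Hochberg adjustment over all genes tested, at 0.05. The SE and adjusted p come from this fit. Alternatives were edgeR 4.0.16 quasi-likelihood, total-count size factors, no independent filtering, a mean of at least 10, the samples of a comparison only, a replicate block, and leaving out each of 12 libraries. Gene positions and exon lengths come from GENCODE 44 and promoters from RefSeq (GRCh38.p14). The members and the gene lists were chosen with earlier results of these data known. Named genes were all members and RB1, up to 3 genes per list and direction with the largest change among those called with a mean of at least 100, and the 3 genes most like each member, of which some are not reported here.

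Nothing in the labels ties equal replicate numbers to a shared batch. In abemaciclib, same-numbered sgControl and knockout libraries deviated together from their group means (correlations of 0.15, 0.26 and 0.11), which counted as paired, and in no other pair of groups did all 3 numbers exceed 0.1. The fit reported has no term for this pairing, and the replicate block is given as an alternative only. The closest replicates still differed beyond counting noise, with a chi-square of 3.49 per gene, so each library counted as 1 sample. Untreated sgControl replicates differed most, at 18.1 to 105 per gene, against 3.49 to 5.58 for untreated knockout replicates. All groups share one dispersion estimate per gene. In knockout cells 2773 genes rose and 2802 fell, against 3126 and 3598 in a fit of the knockout samples alone.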

Additional observations from a re-analysis of the deposited data

Results flagged for a closer look

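For 8 of the 10 members the response to abemaciclib differed between RB1 knockout and sgControl cells in a test of that difference itself, the interaction term of the DESeq2 fit. The difference is the response in knockout cells minus that in sgControl cells on the log2 scale, and 21.0% of all genes tested had one above 0 and 20.2% one below 0.

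It was 5.99 for E2F7, 4.75 for E2F8 and 3.78 for E2F2, the members that had fallen the most in sgControl cells. It was 0.88 for TFDP1, 0.86 for E2F1 and 0.56 for E2F6. It was below 0 for the 2 members that had risen in sgControl cells, at -0.73 for TFDP2 and -0.37 for E2F3. The value for E2F3 was the one that a change of scaling took past the threshold.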

How the results depend on the processing

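Over the 5 comparisons and all alternatives, single members kept their direction and side of the threshold in 848 fits, lost a call in 24, gained one in 9 and changed sign in 9. The calls of E2F2, E2F7, E2F8, E2F1 and TFDP1 in sgControl cells held in every alternative. In knockout cells 5 members were called in the fit reported, 3 without independent filtering, 3 with the replicate block, and 3 to 7 when 1 library was left out. The block took away the calls of E2F5 (adjusted p = 0.0597) and E2F6 (0.0765) there and changed no other call of a member. When 1 library was left out, 4 to 6 members were called between untreated genotypes, 9 in sgControl cells, 8 interactions and 6 under abemaciclib. Size factors from total counts moved the median of all genes by over 0.1, to -0.12 in sgControl cells (4529 genes higher and 6774 lower, against 5657 and 5615), 0.16 for the interaction (5466 and 3099, against 4415 and 4250) and 0.14 between genotypes under abemaciclib (6990 and 4819, against 6117 and 5885). Relative to these shifts the members' large changes were as reported, and E2F4 in sgControl cells was at -0.35. Signs turned only in values that were not called. With those factors they were E2F5 in sgControl cells at -0.018 and, between genotypes under abemaciclib, TFDP2 at 0.063, E2F3 at 0.0052 and E2F4 at 0.086. With 1 library left out, TFDP2 there ranged from -0.095 to 0.025 (without treated sgControl replicate 2), and E2F8 between untreated genotypes from -0.086 to 0.054, with values of 0.012, 0.054, 0.0052 and 0.019 without untreated sgControl replicates 2 and 3 and untreated knockout replicates 1 and 2. The cause was not tested.

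Shares of the E2F level depended on the length used. With the longest transcript the activator and repressor shares were 67.6 and 23.6% in untreated and 61.2 and 38.4% in treated sgControl cells, 68.0 and 22.2% in untreated and 67.3 and 23.8% in treated knockout cells, the last with an atypical share of 8.85%. Without division by length, activator, repressor and atypical shares were 66.6, 21.5 and 11.9% in untreated and 61.8, 37.7 and 0.532% in treated sgControl cells, 67.0, 19.6 and 13.4% in untreated and 66.2, 21.6 and 12.2% in treated knockout cells. With 1 library left out the activator share was 71.2 to 72.7% and 66.9 to 67.8% in sgControl cells. Around TFDP1 the median was -0.72 and -0.81 within 2 Mb and -0.68 and -0.79 within 10 Mb. By Spearman correlation 4 of the 30 genes found most alike remained among the 3 highest. Depth limited E2F7 in treated sgControl cells, with at most 16 reads.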

Other observations

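Other rows of the E2F and DP families hardly held reads. The 9 rows whose symbols begin with E2F or TFDP and that are not members, which are pseudogenes, an intronic transcript and the DP gene TFDP3, held 6 counts over the 12 libraries, 5 in E2F3P2 and 1 in TFDP3.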
